A study of Mus musculus with 20 samples.

Results

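Injured tracheas of mice without Myd88 were compared with injured wild-type tracheas, 5 against 5 of the 20 whole-trachea arrays of the study, 3 days after 2% polidocanol had been instilled into the airway. Polidocanol is a detergent that strips the surface epithelium and so starts a cycle of inflammation and repair. The samples were chosen by their labels, and the 10 uninjured tracheas, 5 of each genotype, served to set apart differences that were already there before injury. The wild-type mice are labelled C57/Bl6 and the others Myd88 KO, a whole-body deletion moved onto the C57/Bl6 background by repeated backcrossing and bred as a colony of its own beside the wild-type colony, so that deletion and colony cannot be told apart in these data. All 4 groups share the labelled age of 4 months and, apart from genotype and injury, differ in nothing that the labels give. The uninjured mice received no detergent by their labels, and the sex of single animals is not given. By the study's methods adult mice came from several age-matched litters, but no source used here ties an array to a litter or cage, and p-values measure the spread between these arrays. Whole tracheas contain epithelium, glands, cartilage, muscle and fat, and in such tissue fewer cells of a type and less RNA per cell cannot be told apart.

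Myd88 is the adaptor through which most Toll-like receptors and the receptors for IL-1, IL-18 and IL-33 signal. Ligand binding brings Myd88 and the Irak kinases together, Traf6 and the IKK complex are switched on, and NF-kB enters the nucleus to induce cytokines, chemokines that call in neutrophils and monocytes, and acute phase proteins. In airways the pathway is known for antibacterial defence and for the response to damaged cells.

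Every value below is a log2 signal on a scale whose 0 is the 75th percentile of the array, and a difference is Myd88KO minus wild-type on the log2 scale unless it is called an injury difference, which is injured minus uninjured within 1 genotype. A probe was called when its adjusted p was under 0.01 (limma, Benjamini-Hochberg over 26064 tested probes). Between 57.5% and 67.1% of spots were well above background on the 10 injured arrays. The array labelled injured Myd88KO replicate 5 lay close to the uninjured arrays for most groups of injury-induced genes. It had the lowest share of spots above background, and many but not all counts and calls that move without it are given both ways.

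Of the 26064 probes, 99 from 89 genes differed between the injured genotypes, which is 0.38% of those tested. There were 60 lower in Myd88KO (0.23%) and 39 higher (0.15%), and the 5 arrays of each group did not overlap for 97 of the 99, against 1.96% of all probes. In the uninjured comparison 100 probes were called (0.384%). Of the 99 injured calls, 69 were also called in the uninjured tracheas with the same sign, 17 had an unadjusted p under 0.05 there with the same sign and are described as intermediate, and 13 had no uninjured difference of that sign at this level. The median difference over all probes was -0.034. Leaving out injured Myd88KO replicate 5 gave 85 calls, of which 79 were among the 99. With the 10 injured arrays fitted alone 38 probes were called, and with the methods' one-way test on single probes 21. The comparisons of injured and of uninjured tracheas share no array.

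**Figure D1:**
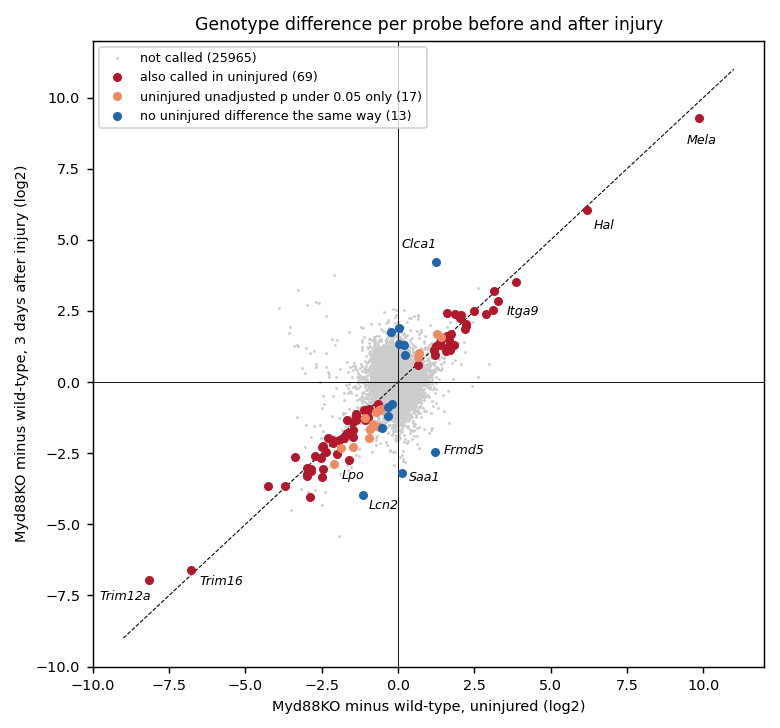
Genotype difference of each tested probe in uninjured tracheas (x axis, log2) against that 3 days after injury (y axis, log2), with 5 arrays in each group and the dashed line at equal differences. The 69 probes called in both comparisons lie along the line, and Lcn2, Saa1, Clca1 and Frmd5 lie away from it.

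The deleted gene was itself among the 13. The probe for Myd88, printed 10 times on each array and located on chromosome 9, 119016408 to 119016467 in the positions of the files, gave 2.78, 2.67, 2.36, 2.65 and 2.80 on the injured wild-type arrays. On the injured Myd88KO arrays it gave 1.54, 2.04, 2.09, 2.09 and 1.68. The groups did not overlap, and the difference was -0.77 ± 0.14 (SE, adjusted p = 0.0082, limma). In uninjured tracheas the difference was -0.21, and the injury difference was 0.58 in wild-type and 0.02 in Myd88KO. The signal in injured Myd88KO stayed well above background on all 5 arrays, and the uninjured groups overlapped. Whether the probe lies in the deleted part was not analysed, so the probe does not serve as a check of the labels. The difference was -0.71 (adjusted p = 0.03) without injured Myd88KO replicate 5, which was no longer a call, and the call was lost when any 1 of 16 of the 20 arrays was left out.

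The 69 probes called in both conditions came from 61 genes, 40 lower and 29 higher in Myd88KO, and included the largest differences of the injured comparison. Their median size was 2.04 in injured and 2.01 in uninjured tracheas, 31 of them differed more after injury and the others less, and the difference went the same way on all 5 slides for each of the 69. Since the class was made by requiring both calls, the likeness of the sizes is a description. Leaving out injured Myd88KO replicate 5 kept 62 of the 69 in the class.

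Mela, the melanoma antigen gene, differed most. Its probe gave -2.77, -2.005, -2.09, -3.17 and 0.00 on injured wild-type arrays and 7.03, 7.72, 6.49, 8.04 and 7.05 on injured Myd88KO arrays. Every Myd88KO array exceeded every wild-type array, with a difference of 9.27 ± 0.59 (adjusted p = 6.3e-09) against 9.84 before injury. Hal, histidine ammonia-lyase, which begins the breakdown of histidine, gave -4.18, -3.75, -5.11, -4.25 and -3.66 in injured wild-type, where 4 of 5 arrays were well above background, and 1.82, 2.56, 1.38, 2.32 and 1.30 in injured Myd88KO. The difference was 6.07 ± 0.35 (adjusted p = 1.4e-09), and the injury difference was 0.98 in wild-type and 0.86 in Myd88KO. Itga9, the integrin alpha 9 chain and the called gene nearest to Myd88, on chromosome 9, 118578986 to 118579045, gave -1.26, -1.65, -1.37, -1.45 and -1.24 in injured wild-type and 1.17, 1.65, 1.46, 1.61 and 1.48 in injured Myd88KO. The difference was 2.87 ± 0.13 (adjusted p = 1.2e-10) and was 3.26 before injury. A second Itga9 probe differed by -0.19 (adjusted p = 0.7), so that the 2 probes of this gene disagree.

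Among genes of metabolism and cell structure, Ntn4, which encodes the basement membrane protein netrin 4, was well above background on no injured wild-type array and on all 5 injured Myd88KO arrays, at least 3.11-fold higher (means -5.76 ± 0.52 and -3.35 ± 0.40, SD, n = 5; adjusted p = 2.9e-06). Nnt, the mitochondrial transhydrogenase, in which some C57BL/6 substrains carry a deletion, was higher on 3 probes, by 1.47, 1.61 and 1.31. Without injured Myd88KO replicate 5 the probe at 1.61 was no longer called (limma, adjusted p = 0.014). The Nnt probe in the plot of genes called in both comparisons gave -1.87, -0.91, -1.56, -1.22 and -1.77 in injured wild-type and -0.75, 0.51, 0.42, 0.26 and 0.29 in injured Myd88KO, where replicate 1 was the lowest and still above every wild-type array. Atp10d, a phospholipid flippase, was higher by 2.44 and Cuedc1 by 3.22. The myosin heavy chains of heart and slow muscle were higher on both Myh7 probes, by 1.97 and 2.04, and on 1 of 2 Myh6 probes, by 1.67 (the other differed by 1.61, adjusted p = 0.021). The Myh7 probes start at 49837275 and 49837280 on chromosome 14 and cover nearly the same bases, so they are not independent measurements. Myocd, a coactivator of muscle genes, was higher by 1.25 on 1 of 2 probes and differed by 0.30 on the other.

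Of genes with a role in defence, Lbp, which carries bacterial lipopolysaccharide to CD14 and TLR4 and so acts upstream of Myd88, gave 1.53, 1.97, 1.64, 2.27 and 1.57 in injured wild-type and 2.27, 3.21, 3.59, 3.29 and 3.06 in injured Myd88KO. The groups did not overlap, but the lowest Myd88KO array, replicate 1, lay only just above the highest wild-type array, and Lbp was higher by 1.29 ± 0.23 (adjusted p = 0.0059), as it was before injury (1.36). Its adjusted p was 0.016 without injured Myd88KO replicate 5, and its call was lost for 8 of the 20 arrays when each was left out in turn. The TRIM family of ubiquitin ligases, many of which restrain viruses, gave calls in the other direction. On the probe for Trim16 injured wild-type arrays gave 0.09, -0.16, -0.50, 0.03 and -0.33 and injured Myd88KO arrays -6.22, -7.50, -6.23, -7.54 and -6.50. No Myd88KO array was well above background, and Trim16 was at least 29.95-fold lower (adjusted p = 1.2e-10). A brighter Trim16 probe differed by -0.72 with an adjusted p of 0.057, so the size depends on the probe. Of the 9 TRIM genes tested by their brightest probe, 6 were lower at an unadjusted p under 0.05 (8.09% of all probes were), 3 were called and all 3 were lower. These were Trim12a, Trim30d and Trim34a, neighbours on chromosome 7. Without injured Myd88KO replicate 5, 5 of the 9 were lower at that level and 2 calls were kept.

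Other large differences of the shared class were those of Rprd1b, a regulator of RNA polymerase II, Myom1, a protein of the muscle M-band, Apbb2, which binds the amyloid precursor protein, Rnf41, a ubiquitin ligase, and several transcripts without a described role. Rprd1b gave 2.93, 2.58, 2.80, 3.11 and 2.79 in injured wild-type and -0.40, -0.26, -0.33, -0.58 and 0.14 in injured Myd88KO. The groups lay far apart, by -3.13 ± 0.16 (adjusted p = 3.2e-10), with -2.84 before injury. Myom1 was well above background on all injured wild-type arrays and on no injured Myd88KO array, at least 4.82-fold lower (adjusted p = 1.1e-05). Apbb2 differed by -3.07 on 1 of 3 probes and by -0.45 and -0.35 on the others (limma, adjusted p = 0.27 and 0.34). The first of these was well above background on 2 of 5 injured Myd88KO arrays. Rnf41 differed by -2.54 on the only called probe of 4. Of 2 Rprd1b probes 1 was called, and of 3 Myom1 probes 1. The transcripts AK153846, TC1415719 and AK085907 were likewise below background in all 5 injured Myd88KO arrays, at least 4.21-fold, 3.25-fold and 2.48-fold lower. TC1485374 differed by 3.50 and AK047604 by 2.51, with 2 and 3 of the 5 injured wild-type arrays well above background. Fbxw27, an F-box protein, was well above background on all 5 injured Myd88KO arrays and on no injured wild-type array, at least 2.97-fold higher. A probe without a gene name, at 84360192 on chromosome 11, had the same pattern and was at least 3.255-fold higher. Its call was lost under 2 other settings, with a difference as low as 0.675. These bounds hold for the processed signal. With normexp background correction, whose offset compresses dim signals, the differences were 0.70 for Ntn4, -1.097 for Myom1, 0.63 for Fbxw27, -0.82 for AK085907 and -3.46 for Trim16, and only Trim16 of these kept its call.

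**Figure D2:**
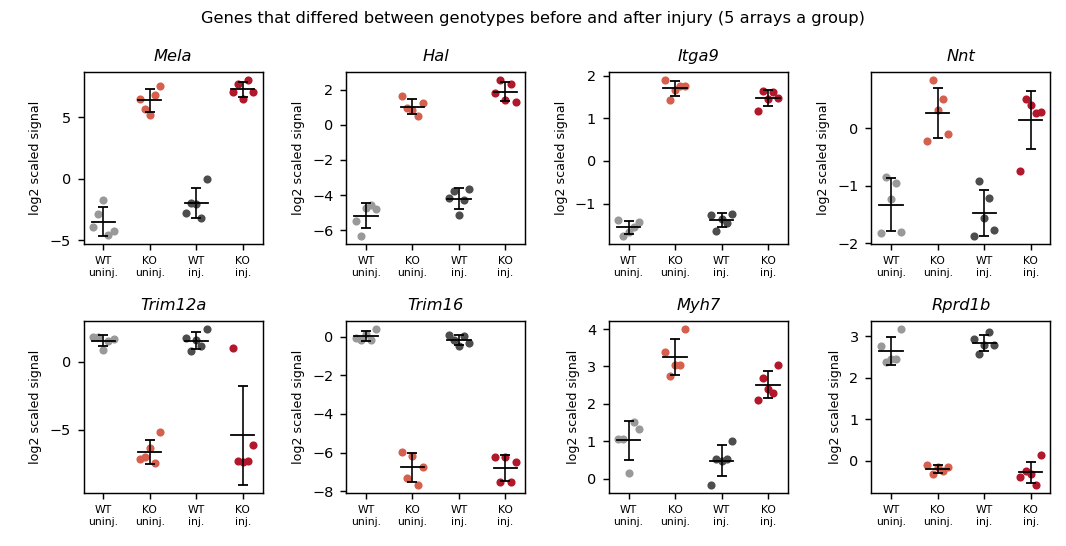
Log2 signal of 8 genes called in both the uninjured and the injured comparison, 1 point an array (5 a group), with the mean and SD as bars. The 2 genotypes are apart before and after injury, and for Trim12a 1 injured Myd88KO array, replicate 1, lies with the wild-type arrays.

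On the Trim12a probes 1 array stood apart. The brighter probe gave 1.76, 0.81, 1.59, 1.17 and 2.42 in injured wild-type and 1.01, -7.33, -7.36, -7.32 and -6.10 in injured Myd88KO, so that replicate 1 of Myd88KO lay within the wild-type range while the other 4 were near the floor. All 5 uninjured Myd88KO arrays were at -5.19 or lower. The difference of -6.97 (adjusted p = 0.0017) is 1 of the 2 calls whose groups overlap. To follow this over all 69 probes, each Myd88KO array was placed between the wild-type median, set to 0, and the Myd88KO median, set to 1. On injured Myd88KO replicate 1, 12 of the 69 probes lay below 0.5, nearer to wild-type. The count was 2 on injured replicate 4, 1 on uninjured replicate 5 and 0 on the other 7 Myd88KO arrays. The 12 were the 3 probes of Nnt, 2 of Trim12a (0.07 and 0.29), 1 each of Pold3, Trim30d, Trim34a, Lbp, Myh6, Galk2 and Clec16a. On the same array Mela, Hal, Itga9 and Trim16 lay at 1.01, 1.08, 0.85 and 0.94, like the other Myd88KO arrays. Without this array 102 probes were called in all.

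**Figure D3:**
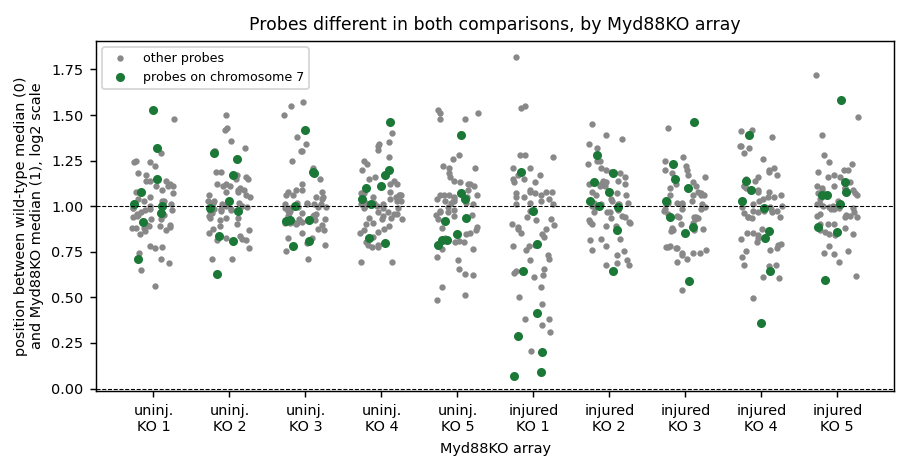
Each of the 69 probes called in both comparisons on each of the 10 Myd88KO arrays, placed between the wild-type median (0) and the Myd88KO median (1) on the log2 scale, with the probes on chromosome 7 in green. Injured Myd88KO replicate 1 has 12 probes below 0.5, and no other array has more than 2.

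Called probes lay close together on the chromosomes. Of the 67 probes of the shared class with a position, 45 (67.2%) had another called gene within 2 Mb, against 12.5% of all tested probes, and the share was 76.5% (13 of 17) in the intermediate class and 46.2% (6 of 13) in the class without an uninjured difference. The share of tested probes that was called was 0.963% on chromosome 13 (9 probes), 0.871% on chromosome 2 (18), 0.858% on chromosome 11 (18) and 0.64% on chromosome 7 (12). The longest run, on chromosome 2 from 152153987 to 158069296, held 10 called genes including Rprd1b and Lbp. A run of 7 genes on chromosome 11 from 84360192 to 88837638 held Cuedc1, Lpo and Brip1os. Around Myd88, 5 of 150 tested probes within 5 Mb were called, all in the shared class (3.33% against 0.38% overall). They belonged to Itga9 and, farther along, to Limd1, Fyco1 and 0610042G04Rik. Limd1, a LIM scaffold protein, was called on 2 probes, and Fyco1, an adaptor of autophagosome transport, on 1 of 6, all lower in Myd88KO. Tested probes of 39 of the 47 called genes that had more than 1 probe did not all pass, and probes of Arsk and Pold3 were called in opposite directions. Arsk, an arylsulfatase, differed by -3.01 on 1 probe and by 2.34 on another, and Pold3, a subunit of DNA polymerase delta, by -1.80 and 1.096. The 2 Pold3 probes start at 96129680 and 96129681 on chromosome 7 and cover nearly the same bases. Their opposite values are therefore not those of different parts of the gene, and the cause was not tested.

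The 17 intermediate probes, 13 lower and 4 higher, all differed more after injury than before, with a median size of 1.54 against 0.823, and 3 of them had an unadjusted p under 0.05 for the interaction of genotype and injury (10.4% of all probes did). Without injured Myd88KO replicate 5, 11 of the 17 were called and 10 stayed in the class. The class rests on 2 thresholds and not on a test between the comparisons. It was made by requiring a call after injury and none before, so the larger size after injury follows from the choice and is a description. Lpo, lactoperoxidase, an antibacterial enzyme of airway glands, gave 2.67, 3.36, 2.73, 3.00 and 1.66 in injured wild-type and -0.88, 1.40, 0.49, -0.46 and -1.60 in injured Myd88KO. The difference was -2.89 ± 0.47 (adjusted p = 0.0022), and its uninjured difference of -2.09 had an adjusted p of 0.048. Cfb, complement factor B of the alternative pathway, gave 4.49, 4.11, 4.26, 4.47 and 4.82 in injured wild-type and 3.04, 3.49, 2.49, 2.79 and 2.45 in injured Myd88KO. It was -1.58 ± 0.23 (adjusted p = 5.8e-04) after injury and -0.62 before, and the injury difference was 1.00 in wild-type and 0.04 in Myd88KO. Nfatc1, a transcription factor under calcineurin, differed by -1.63 against -0.93 before injury, and Rassf2, a Ras-binding protein, by -1.96 against -0.96. Each was called on 1 of 2 probes.

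The 13 probes without an uninjured difference of the same sign came from 13 genes, 7 lower and 6 higher in injured Myd88KO. In each of the 13 the genotype difference was opposite in sign to the injury difference of wild-type tracheas, and 8 of the 13 were called for injury in wild-type. All 13 had an unadjusted p under 0.05 for the interaction (limma, 10.4% of all probes did), which the choice of the class favours. None passed after adjustment (lowest adjusted p = 0.18), so a difference from the uninjured comparison was not called for any of them. The contrasts share the injured arrays, and the opposite direction is therefore a description. The size of this class depended on single arrays and on the fit. It ranged from 3 probes without injured Myd88KO replicate 3 to 40 without injured Myd88KO replicate 2, was 22 with scan day and 48 with Xist in the model, and was 0 where the injured arrays were fitted alone.

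The lower genes included those of antibacterial and acute phase proteins. Lcn2, lipocalin 2, which starves bacteria of iron by binding siderophores, gave 1.43, -0.56, 0.07, 0.34 and 2.41 in injured wild-type and -4.91, -1.30, -3.83, -1.21 and -4.83 in injured Myd88KO. Replicates 2 and 4 of Myd88KO came nearest to wild-type, the groups did not overlap, and 3 of the 5 Myd88KO arrays were well above background. The difference was -3.95 ± 0.67 (limma, adjusted p = 0.0038), with -1.16 before injury (unadjusted p = 0.10). The uninjured groups did not overlap either, at -3.46 or higher in wild-type and -3.70 or lower in Myd88KO. Saa1, the acute phase protein serum amyloid A1, gave 2.58, 0.00, 2.11, 1.72 and 5.25 in injured wild-type and -1.42, -0.24, -1.06, -0.30 and -1.29 in injured Myd88KO. The lowest wild-type array, replicate 2, was close to the highest Myd88KO arrays, and the difference was -3.19 ± 0.59 (adjusted p = 0.0082) against 0.12 before injury. The injury difference of Lcn2 was 3.62 in wild-type and 0.82 in Myd88KO, and that of Saa1 3.67 and 0.36. Both genotypes were scanned on each of 2 days, and within the days the Lcn2 difference was -2.06 (3 pairs of arrays) and -6.79 (2 pairs), that of Saa1 -1.81 and -5.27. Both missed the threshold of 0.01 without injured Myd88KO replicate 5 (adjusted p = 0.015 and 0.029), and, over all 20 arrays left out in turn, the call of Lcn2 was lost in 5 cases and that of Saa1 in 17. The other lower genes were Gpr182, an endothelial receptor (-1.62), Irgm2, an interferon-induced GTPase (-1.20), Brip1os, an RNA from the strand opposite Brip1 (-0.88), Frmd5, described with the interaction, and Myd88. Brip1os differed by -0.33 before injury, also without overlap of the uninjured groups (limma, unadjusted p = 0.052).

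**Figure D4:**
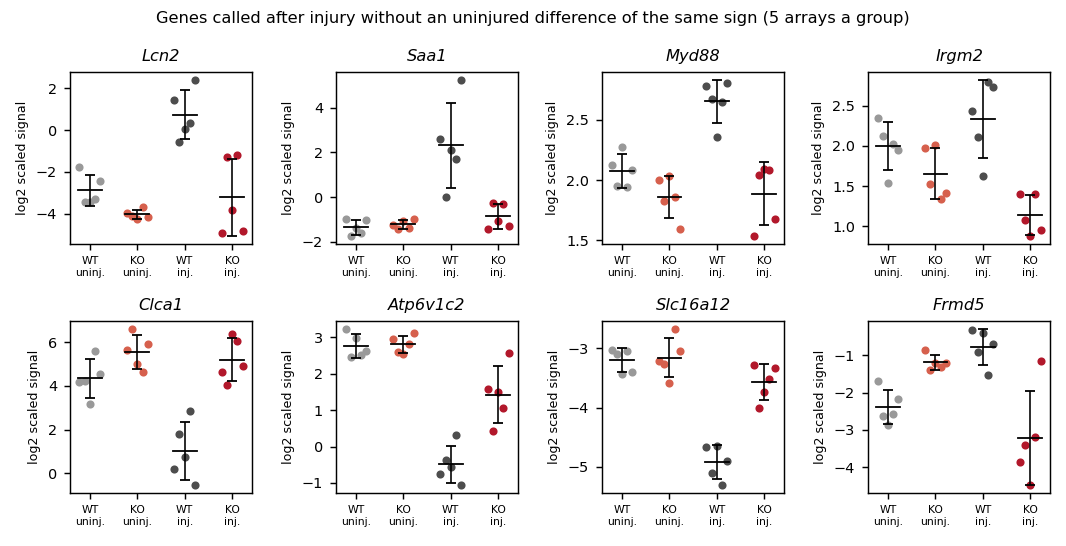
Log2 signal of 8 of the 13 genes called after injury without an uninjured difference of the same sign, 1 point an array (5 a group), with the mean and SD as bars. For Lcn2, Saa1, Clca1, Atp6v1c2 and Slc16a12 the injured wild-type mean lies away from those of the other 3 groups, and for Frmd5 1 injured Myd88KO array, replicate 5, lies with the wild-type arrays.

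Among the 6 higher genes the largest difference was that of Clca1, a protein secreted by mucous cells. It gave 0.17, 1.81, 0.74, 2.85 and -0.54 in injured wild-type and 4.65, 4.05, 6.39, 6.08 and 4.90 in injured Myd88KO. Every Myd88KO array exceeded every wild-type array, by 4.21 ± 0.59 on average (adjusted p = 4.8e-04), and the injury difference was -3.33 in wild-type and -0.36 in Myd88KO. The uninjured difference of 1.23 did not pass. Atp6v1c2, a subunit of the proton pump of acid-secreting cells and organelles, gave -0.75, -0.37, -0.57, 0.32 and -1.05 in injured wild-type and 1.57, 0.43, 1.50, 1.05 and 2.57 in injured Myd88KO, a difference of 1.91 ± 0.31 (adjusted p = 0.0021). Slc16a12, a creatine transporter, was well above background on 2 of 5 injured wild-type arrays and on all 5 Myd88KO arrays and differed by 1.35 (adjusted p = 3.8e-04). Cxxc4, an inhibitor of Wnt signalling that was well above background on 2 of 5 injured wild-type arrays, differed by 1.30, and Ctdspl2, a phosphatase-like protein, by 0.95 on 1 of its 3 probes. Cadm2, a cell adhesion protein, was well above background on no injured wild-type array and on 3 Myd88KO arrays. Its injured Myd88KO mean of -5.05 did not exceed the lowest well-above-background signal of the wild-type arrays on average. No fold is therefore given for it although it was called. Without injured Myd88KO replicate 5, Clca1, Atp6v1c2, Slc16a12, Cxxc4, Ctdspl2 and Frmd5 kept their calls, and Lcn2, Saa1, Myd88, Gpr182, Irgm2, Brip1os and Cadm2 did not. Over the 20 arrays left out in turn the calls of Clca1, Atp6v1c2, Slc16a12 and Cxxc4 were never lost, and those of the others were lost in 3 cases for Gpr182, 5 for Lcn2, 6 for Ctdspl2, 8 for Frmd5, 13 each for Irgm2 and Brip1os, 15 for Cadm2, 16 for Myd88 and 17 for Saa1. With normexp background correction, which compresses dim signals by its offset, the differences of Slc16a12, Cxxc4 and Cadm2 were 0.39, 0.33 and 0.22, and their calls were lost.

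Promoters are shown for Lcn2, Saa1 and Myd88, whose calls were all lost without injured Myd88KO replicate 5. A pair of NF-kB target genes from the lists, Nfkbia and Cxcl10, is shown beside them, because NF-kB is the factor that Myd88 signalling ends in. The windows (RefSeq, GRCm38.p6) run 5′ to 3′ from 250 bases before to 25 after the start of each gene, and capitals mark GGAANNTCC on either strand (GGANNTTCC on the strand shown), a short form of the NF-kB motif.

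Lcn2: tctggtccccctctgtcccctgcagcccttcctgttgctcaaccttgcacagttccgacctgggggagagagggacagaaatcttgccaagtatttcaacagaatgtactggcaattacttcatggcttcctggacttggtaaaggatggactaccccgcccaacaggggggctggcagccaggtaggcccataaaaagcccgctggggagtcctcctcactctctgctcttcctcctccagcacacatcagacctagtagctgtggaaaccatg
Saa1: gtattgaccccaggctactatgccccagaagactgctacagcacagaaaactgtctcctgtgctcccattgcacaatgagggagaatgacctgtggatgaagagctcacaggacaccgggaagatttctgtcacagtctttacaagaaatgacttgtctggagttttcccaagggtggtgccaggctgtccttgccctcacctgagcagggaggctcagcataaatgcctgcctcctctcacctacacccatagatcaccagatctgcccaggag
Myd88: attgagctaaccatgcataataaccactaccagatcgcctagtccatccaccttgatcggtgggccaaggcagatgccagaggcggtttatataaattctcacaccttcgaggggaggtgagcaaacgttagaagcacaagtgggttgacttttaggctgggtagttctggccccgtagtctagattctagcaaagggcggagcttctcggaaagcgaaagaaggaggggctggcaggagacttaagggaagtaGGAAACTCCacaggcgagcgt
Nfkbia: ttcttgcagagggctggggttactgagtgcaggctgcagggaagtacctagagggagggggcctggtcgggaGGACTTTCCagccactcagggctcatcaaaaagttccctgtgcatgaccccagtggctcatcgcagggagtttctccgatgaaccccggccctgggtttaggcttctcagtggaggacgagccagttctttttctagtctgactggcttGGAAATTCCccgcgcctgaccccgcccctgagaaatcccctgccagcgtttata
Cxcl10: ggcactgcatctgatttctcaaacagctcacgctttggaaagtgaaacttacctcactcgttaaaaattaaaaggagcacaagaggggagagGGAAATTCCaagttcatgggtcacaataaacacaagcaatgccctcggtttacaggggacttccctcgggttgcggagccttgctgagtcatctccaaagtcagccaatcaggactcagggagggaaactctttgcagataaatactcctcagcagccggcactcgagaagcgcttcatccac

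The windows lie at chr2:32387715-32387989 (minus strand), chr7:46742956-46743230 (minus), chr9:119339994-119340268 (minus), chr12:55492623-55492897 (minus) and chr5:92348865-92349139 (minus). Over the 300 bases searched, from 250 before to 50 after the start, Lcn2 and Saa1 held no match, and Myd88 held 1 that begins at base 5 after the start. Of the 7 lower genes without an uninjured difference of the same sign 5 had a window and 2, Myd88 and Frmd5, held a match, of the 6 higher genes 0 of 5 did, and of the shared class 0 of 35. The share was 5.5% of tested genes with a window and 4.26% of all windows. In the lists it was 5 of 17 chemokine genes, 8 of 19 genes of the NF-kB list and 1 of 10 acute phase genes. Nfkbia and Cxcl10 both hold a match, so the pair shown does not stand for its lists. A match is a run of letters and not a site, and no match says only that these letters are not in this window.

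No probe was called for the interaction of genotype and injury in limma (2703 at an unadjusted p under 0.05, and between 0 and 3 calls under the other settings). The 3 probes of Frmd5, a FERM-domain protein of the cell cortex, were among the 4 lowest p-values of the genes named here. The probe called after injury gave -1.70, -2.63, -2.87, -2.57 and -2.18 in uninjured wild-type and -0.85, -1.39, -1.20, -1.30 and -1.21 in uninjured Myd88KO. After injury it gave -0.32, -0.91, -0.40, -1.52 and -0.70 in wild-type and -3.87, -3.40, -4.47, -3.18 and -1.14 in Myd88KO. Before injury every Myd88KO array was above every wild-type array, and after injury 4 of 5 were below all of them. The injury difference was 1.62 in wild-type and -2.02 in Myd88KO, an interaction of -3.65 (adjusted p = 0.18), with -2.80 and -2.78 on the other probes. Replicate 5 of injured Myd88KO lay at the uninjured Myd88KO level, and without it the interaction was -4.16 (adjusted p = 6.6e-05). On the other probes it was then -3.02 (adjusted p = 0.02) and -3.18 (adjusted p = 0.0057). The third call without that array was 2210407C18Rik, with an interaction of 4.15 (adjusted p = 0.0057).

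Some other low p-values of the interaction came from genes whose genotype difference was smaller after injury. Trim27, a ubiquitin ligase, differed by 1.62 before injury (adjusted p = 0.0011) and by -0.32 after it, when wild-type arrays gave -2.29, -1.81, -1.99, -1.91 and -2.003 and Myd88KO arrays -2.03, -1.78, -2.50, -1.98 and -3.33. The injury difference was 2.18 in wild-type against 0.24 in Myd88KO (interaction -1.95, adjusted p = 0.19). Low p-values with a positive sign were those of Slc16a12, Tex33 (1.68) and Retreg1 (0.89), a receptor for autophagy of the endoplasmic reticulum, none of them called for the interaction. The genotype difference of Slc16a12 was larger after injury, 1.35 against 0.04. Of the 6 genes that the study followed by RT-PCR, Hal, Ntn4 and Trim12a were called in both conditions and Mogat2, Ocm and Pttg1 before injury only. Mogat2, an enzyme of triglyceride synthesis, differed by 2.63 before injury (adjusted p = 2.5e-04) and by 0.18 after it, with -2.26, -3.21, -2.65, -3.08 and -2.07 in injured wild-type and -1.28, -2.90, -2.63, -2.63 and -2.93 in injured Myd88KO. Pttg1, securin, a regulator of sister chromatid separation, differed by -3.32 before injury (limma, adjusted p = 6.5e-06) and -1.23 after it (adjusted p = 0.11), with no overlap of the injured groups. The injury difference was -0.47 in wild-type and 1.63 in Myd88KO (interaction 2.10, adjusted p = 0.39). Ocm, the calcium-binding protein oncomodulin, differed by -2.76 before injury and -1.53 after it.

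The pathway around Myd88 was described gene by gene on the brightest probe of each gene. Few of its own parts differed. Of 14 tested Toll-like and IL-1 family receptors 0 were called, 4 were lower and 1 higher at an unadjusted p under 0.05, and the median difference was -0.30. Over all probes 8.09% were lower and 4.43% higher at that level. Tlr5, the flagellin receptor, differed by -0.60, Tlr1, which pairs with Tlr2 for lipoproteins, by -1.56 and Il1r1, the IL-1 receptor, by -0.44 (limma, adjusted p = 0.27, 0.28 and 0.35). Of 16 adaptors and kinases only Myd88 was called, and the median of the 16 was 0.02. Chuk, the IKK alpha kinase, differed by 0.65 (adjusted p = 0.2) and Irak3, a brake on the relay, by -0.51 (adjusted p = 0.38). Of 19 feedback and target genes of NF-kB 10 were lower at an unadjusted p under 0.05, none higher and none called, with a median of -0.48 (-0.11 before injury). With injured Myd88KO replicate 5 left out, the lower genes were 6 of 19 in this list and 1 of 14 among the receptors. Relb, a subunit of NF-kB, differed by -0.49, Tnfaip2 by -0.69 and Zc3h12a, a ribonuclease that degrades inflammatory mRNAs, by -0.92. Zc3h12a differed by as much before injury (-0.97).

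The products that the pathway is known to induce were counted next. Of 13 acute phase genes 7 were lower and 1, Lbp, higher at an unadjusted p under 0.05, with a median of -1.01 and 3 calls (Lcn2, Saa1 and Lbp), of which none was kept without injured Myd88KO replicate 5. Saa3, the serum amyloid of inflamed tissue, gave 3.20, 0.45, 2.48, 2.69 and 6.16 in injured wild-type and -3.87, 0.23, -2.35, 0.22 and -6.26 in injured Myd88KO. The groups did not overlap and 4 of 5 Myd88KO arrays were well above background, although replicates 2 and 4 of Myd88KO came close to the lowest wild-type array, and the difference of -5.40 ± 1.099 had an adjusted p of 0.021. Of 24 chemokines 10 were lower, none was higher and none was called (median -0.98). Ccl2, which draws monocytes, gave 4.33, 2.35, 1.30, 2.40 and 4.01 in injured wild-type and 0.61, 1.12, 0.07, 1.37 and -0.87 in injured Myd88KO, a difference of -2.42 ± 0.49 (adjusted p = 0.021). Ccl7, which acts on the same cells, differed by -2.45 (adjusted p = 0.033) and Ccl19, a ligand of Ccr7, by -1.47 (adjusted p = 0.082). Of 19 interferon-stimulated genes 8 were lower and none higher (median -0.45, 0.38 before injury). Among them Rsad2, the antiviral enzyme viperin, differed by -1.67 and Zbp1, a nucleic acid sensor, by -1.13, neither called. Without injured Myd88KO replicate 5 the lower genes were 7 of 13 acute phase genes, 10 of 24 chemokines and 5 of 19 interferon-stimulated genes.

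Markers of infiltrating cells were lower in injured Myd88KO in the same way without any call. Of 13 tested neutrophil genes 9 were lower at an unadjusted p under 0.05 (median -1.95) and of 26 monocyte and macrophage genes 17 (median -1.27), and no member of either list was higher at that level. Without injured Myd88KO replicate 5 the counts were 7 and 11 and the medians -1.40 and -0.77, with 6.82% of all probes lower. Csf3r, the G-CSF receptor of neutrophils, gave -0.25, -0.77, -0.53, -0.85 and 1.21 in injured wild-type and -4.89, -0.96, -4.42, -0.91 and -6.13 in injured Myd88KO (difference -3.22, adjusted p = 0.088). S100a8, a calprotectin subunit abundant in neutrophils, differed by -3.88 and was already -2.39 before injury. The C1q chains made by macrophages differed together, C1qa by -1.31, C1qb by -1.29 and C1qc by -1.25 (adjusted p = 0.061, 0.082 and 0.067).

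The injured Myd88KO tracheas varied widely among themselves. The median difference of the neutrophil genes from the uninjured mean of the same genotype was 4.03, 2.24, 3.37, 2.65 and 5.50 on the 5 injured wild-type arrays and 1.61, 4.97, 0.75, 5.77 and -0.26 on the 5 injured Myd88KO arrays. By this measure Myd88KO replicates 2 and 4 stood among or above the wild-type arrays, replicates 1 and 3 below them, and replicate 5 at the uninjured level. The starting points differed, since the neutrophil genes had a median genotype difference of -0.45 before injury, against 0.036 over all probes. Of the 13 genes 4 were lower before injury at an unadjusted p under 0.05, and the share of all probes was not counted there. In level, the mean of the list reached -0.32 to 2.55 on injured wild-type and -4.11 to 1.04 on injured Myd88KO arrays. The monocyte and macrophage genes stood at 3.05, 2.41, 1.54, 1.92 and 3.21 in wild-type and at 0.93, 2.42, 0.50, 2.26 and -0.34 in Myd88KO, again with replicates 2 and 4 among the wild-type arrays and replicate 5 at the bottom. Acute phase genes stood at 0.89, 0.61, 0.49, 1.44 and 1.54 in wild-type and at -0.12, 0.06, -0.10, 0.92 and -0.40 in Myd88KO, so that replicate 2, high in neutrophil genes, was below every wild-type array here and replicate 4 was within their range. The lowest neutrophil, macrophage and replication values came from the same array, replicate 5.

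**Figure D5:**
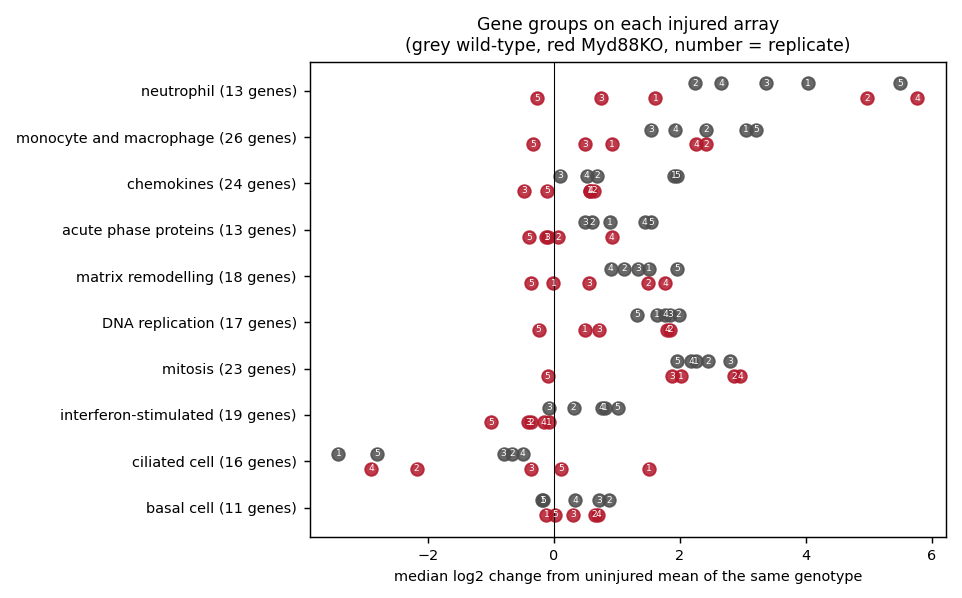
Median log2 change of 10 gene groups on each injured array from the mean of the 5 uninjured arrays of the same genotype (x axis), with wild-type in grey and Myd88KO in red and the replicate number in each point. Myd88KO replicates 2 and 4 lie near the wild-type arrays for neutrophil, macrophage and replication genes, replicates 1 and 3 lower, and replicate 5 near 0.

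Genes of tissue repair were counted in the same way. Of 18 matrix remodelling genes 11 were lower at an unadjusted p under 0.05 and none higher (median -0.98), without a call, and 7 of 18 were lower without injured Myd88KO replicate 5. Mmp3, stromelysin, differed by -1.70 (adjusted p = 0.13), Col1a1 and Col1a2, the chains of type I collagen, by -1.11 and -1.06 (adjusted p = 0.16 and 0.14). Of 17 DNA replication genes 11 were lower (median -0.82), among them Gins1 and Chaf1b of the replication and chromatin assembly machinery (-0.93 and -1.03) and Tyms, thymidylate synthase (-0.82). The count was 5 of 17 without injured Myd88KO replicate 5. Of 23 mitosis genes 4 were lower, and 1 without that array, with a median of -0.69 that was -0.18 without it. The median injury difference of the mitosis genes was 2.26, 2.45, 2.79, 2.18 and 1.95 on the wild-type arrays and 2.01, 2.86, 1.88, 2.96 and -0.10 in Myd88KO, so 4 of the 5 Myd88KO arrays were within or near the wild-type range. Of 9 endothelial genes 4 were lower, led by Selp, P-selectin, which slows leukocytes on the vessel wall (-1.94, adjusted p = 0.032). Without injured Myd88KO replicate 5, 3 of the 9 were lower.

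In the epithelium the ciliated cell genes were, on the median, 0.95 higher than in wild-type over 16 genes, but 2 of 16 passed an unadjusted p under 0.05 (1 of 16 without injured Myd88KO replicate 5) and none was called. Dnah5, an axonemal dynein, differed by 1.72 (limma, adjusted p = 0.37) and Foxj1, the regulator of ciliated cells, by 0.54 (adjusted p = 0.84). The median injury difference of the list was -3.42, -0.66, -0.80, -0.50 and -2.81 on wild-type arrays and 1.51, -2.18, -0.37, -2.90 and 0.12 on Myd88KO arrays, and the groups overlap. Of 18 secretory cell genes 2 were higher and 1 lower (median 0.32), and 2 higher and 0 lower without injured Myd88KO replicate 5 (median 0.08). Scgb1a1, the club cell secretoglobin, gave -1.13, -1.16, -0.42, -0.29 and -0.08 in injured wild-type and 4.79, -0.84, 2.72 and 0.18 on injured Myd88KO replicates 1 to 4, since its spot on replicate 5 was an outlier of the scan and was left out, a difference of 2.33 ± 0.73 (adjusted p = 0.18), and Scgb3a2 differed by 2.30 (adjusted p = 0.24). None of 11 basal cell genes passed an unadjusted p under 0.05 (median 0.03). The keratins Krt5 and Krt14 of basal cells differed by 0.05 and -0.34. Of 9 submucosal gland genes Lpo was the only one called and the only one at an unadjusted p under 0.05.

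Of 5 tested B and plasma cell genes none was called, and 1 was higher after injury at an unadjusted p under 0.05 (median 0.38). Before injury 2 were lower at that level (median -0.46), for which no share over all probes was counted. Jchain, the joining chain of polymeric antibodies, gave 3.70, 1.55, -0.94, 4.37 and -0.23 in uninjured wild-type and -2.75, -1.29, -0.81, -2.46 and -2.08 in uninjured Myd88KO. After injury it gave -3.25, -3.44, -3.51, -0.76 and -1.97 in wild-type and 0.74, -0.83, -2.32, -1.68 and -0.19 in Myd88KO. Wild-type arrays spread widely before injury, and the genotype difference went from -3.57 to 1.73 (interaction 5.30, adjusted p = 0.39), with both comparisons short of a call. Mzb1, a chaperone of antibody secretion, differed by 0.93 after injury without overlap (adjusted p = 0.16), and Pou2af1, a B cell coactivator, by 0.38. Of 12 T and NK cell genes 1 was higher (median 0.15), of 8 MHC class II genes 1 was higher (median 0.20) and of 6 mast cell genes none differed at that level (median -0.18).

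The other tissues that a dissected trachea can hold were checked by their markers, and their part in the results was not tested. On the injured arrays the mean level of the cartilage genes was 0.33 to 0.74 in wild-type and -0.35 to 0.56 in Myd88KO. At an unadjusted p under 0.05, 3 of these 11 genes were lower, and 2 without injured Myd88KO replicate 5. The skeletal muscle genes had a mean level of 5.25 to 6.59 and 5.40 to 7.27, with 0 of 11 under that p. That of white adipocyte genes was 2.56 to 4.44 and 2.98 to 4.43, with 0 of 9. The cardiac and slow muscle list, to which Myh6 and Myh7 belong, had 4 of 10 higher and 1 lower (median 0.41). Without injured Myd88KO replicate 5 it had 4 higher and 0 lower (median 0.13). The mean level of the list was -0.85 to -0.33 in wild-type and -0.35 to 0.78 in Myd88KO. Of 7 brown adipocyte genes 3 were higher (median 0.33), and 2 without that array (median 0.11), of 5 thyroid genes none differed at that level (median -0.55), and of 9 smooth muscle genes 1, Myocd, was higher. Col2a1 of cartilage and Myh11 of smooth muscle, both well above background on all 20 arrays, differed by -1.09 and 0.47 without a call. Xist, expressed from the X chromosome of females, was well above background on 3 of 5 injured wild-type and 4 of 5 injured Myd88KO arrays.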

How the data were processed

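Total RNA of whole trachea was labelled with Cy3 and hybridised to 1-colour Agilent mouse arrays, 5 per group. The authors deposited the scanner output, in which intensity is background-subtracted and spatially detrended by Feature Extraction (9.5.1.1), and a value table of the same arrays that was not used for the results. The deposited intensity was divided by the 75th percentile of each array and taken to log2, and the log2 values of the spots of a probe were averaged, leaving out control spots and outlier spots. Probes detected (Agilent's call of well above background) on fewer than 10 of the 20 arrays were dropped, after the study's filter. One limma model (3.58.1, R 4.3.3) was fitted over the 4 groups, with empirical Bayes moderation and Benjamini-Hochberg adjustment at 0.01, the study's threshold. The fit was checked on artificial data with known changes. The number of arrays limits the precision. Probe positions are those of the array files, whose genome build is not given in the sources used here.

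Genes were matched to RefSeq by accession, then by symbol. Named were Myd88 and Itga9, the 8 largest differences in each direction of the shared class and of the class without an uninjured difference whose groups did not overlap, the 3 probes of lowest p in each direction of the interaction, the 3 genes of lowest p of each list (at its brightest probe), the RT-PCR genes, Lbp and tissue markers. Genes of the intermediate class and other probes were chosen after their values were seen. The comparison and the lists were chosen with earlier results of these data known. Other settings were background correction, normalisation, filter, threshold, separate fits, array weights, scan day, slide (replicate number), Xist and the methods' test on single probes.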

Additional observations from a re-analysis of the deposited data

Results flagged for a closer look

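In 14 of 301 groups of 5 arrays examined, among the genes named and the medians of the gene lists, 1 array lay far from the other 4 by Dixon's test. Chance gives about 1 in 20. Of the 14, 6 concerned injured Myd88KO replicate 1. On that array Trim12a stood at 1.01 and, on its second probe, at -3.30, Pold3 at -0.038 and 1.94 on a pair of its probes, Nnt at -0.75 and Mogat2 at -1.28. Injured Myd88KO replicate 5 stood apart for Fyco1 at -0.52, for a Pold3 probe at -1.28, and for the secretory cell genes, whose median injury difference was -0.00674 there and lower on the other 4 arrays. Injured wild-type replicate 5 stood apart for Csf3r at 1.21, for the submucosal gland genes at -1.77 and for the TRIM family at 0.882. Injured wild-type replicate 2 stood apart for the mast cell genes at -0.714 and the MHC class II genes at 0.791. The cause was not tested for any of them.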

How the results depend on the processing

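The 99 calls were 64 among probes well above background on all 10 injured arrays, 38 with the 10 injured arrays fitted alone, 21 with the one-way parametric test of the methods, probe by probe, 147 with Xist as a covariate and 176 at an adjusted p under 0.05, and 77 to 120 when 1 array was left out. The 69 shared probes were 41 with the stricter filter, 35 with separate fits, 14 with that test, and 59 to 71 with 1 array left out. The 13 probes without an uninjured difference were 6 with normexp, 0 with separate fits or that test, 22 with scan day, 48 with the Xist covariate, 56 at an adjusted p under 0.05, and 3 to 40 with 1 array left out. Low counts came without injured Myd88KO replicate 3 (3), injured wild-type replicates 5 (4), 1 and 4 (6 each), and uninjured arrays (7 or 8 without uninjured wild-type replicates 2, 4 and 5 and uninjured Myd88KO replicates 2 and 3), and the high count without injured Myd88KO replicate 2. The interaction, with 0 calls, had 2 with scan day, 3 with array weights, and 0 to 3 with 1 array left out, the 3 being without injured Myd88KO replicate 5. The cause was not tested. With the replicate number, which is also the slide, as a replicate block, there were 112, 74, 15 and 1 calls. The residuals of same-numbered injured arrays correlated between -0.22 and 0.33, 2 of 5 injured Myd88KO arrays correlated best with their own number, and the injured arrays were not taken as pairs. For the uninjured arrays the correlations were 0.25 to 0.48. Of called genes named, 617 values stayed called and 111 did not under other settings, and 1014 stayed and 146 did not with 1 array left out. Signs turned for small differences without a call. These were Krt5 (-0.05 to -0.19 in 4 cases with 1 array left out), Mogat2 (-0.069 with array weights, -0.11 with 1 array left out), Foxj1 (-0.10 to 1.26) and Krt14 (0.25 with array weights, -0.85 to 0.020 with 1 array left out). Probes near background on 1 group give only a bound.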
